A study of Mus musculus with 12 samples.

Results

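The genes described here are 10 targets and feedback inhibitors of the ERK pathway, *Spry1*, *Spry2*, *Spry4*, *Spred1*, *Dusp4*, *Dusp6*, *Etv4*, *Etv5*, *Egr1* and *Myc*. They were chosen by their known roles, with earlier results of these data known though no measured value enters the rule, and found in the count table through their Ensembl identifiers. All 10 are among its 42450 gene identifiers and passed the filter on low counts that left 19410 genes for testing. They were followed in E14tg2a.4, a mouse embryonic stem cell (ESC) line, after RNA interference against *Srrm2*, which encodes a splicing factor of nuclear speckles.

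Wild-type cells received 50 nM of siRNA duplexes in a lipid reagent, directed either at *Srrm2* (Srrm2-KD) or at the firefly luciferase sequence Gl2 (Gl2-KD), which served as control. Cells were collected at 24 h, or received the same siRNA once more and were collected at 72 h. Each of 3 experiments contributed 1 polyA+ library for each siRNA and time point, so that every group has n = 3 and the series has 12 libraries. ESC were kept without serum and with the cytokine LIF before collection. The 72 h cells differ from the 24 h cells in time, in the number of transfections and in the growth of the culture, and these cannot be told apart. The libraries held 73933196 to 153343831 estimated counts, and experiment 1 stood apart from the others on the first principal component, which carried 42.0% of the variation. Levels are given as CPM, counts scaled to the size of each library. The 6 pluripotency genes checked summed to 3095 to 3899 CPM per library, and *Pou5f1* alone had at least 1149. The 13 genes that mark other cell types summed to 31.1 to 49.0 CPM, most of it from *Pax6* and *Thy1*, and *Sox17* and *Cdx2* did not exceed 0.21 CPM in any library. In bulk RNA, fewer expressing cells and less RNA per cell cannot be told apart.

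ERK is the last kinase of a cascade that runs from receptor tyrosine kinases through RAS, RAF and MEK. In mouse ESC, FGF4 made by the cells themselves keeps the cascade active, and its activity primes the cells to leave naive pluripotency. Active ERK raises the transcription of immediate-early and ETS-family factors and also of its own inhibitors, so that these transcripts are commonly read as a measure of pathway output.

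The inhibitors act at different levels. *Spry1* (chr3:37639947-37644598), *Spry2* (chr14:105891947-105896819) and *Spry4* encode Sprouty proteins, which dampen receptor tyrosine kinase signalling, and *Spred1* (chr2:117121374-117182279) encodes a related protein that brings neurofibromin to RAS at the membrane. *Dusp4* (chr8:34807297-34819894) and *Dusp6* (chr10:99263231-99267489) encode phosphatases that remove the activating phosphates from ERK, in the nucleus and in the cytoplasm respectively. *Etv4* (chr11:101769742-101785371) and *Etv5* (chr16:22381309-22439719) encode ETS transcription factors of the PEA3 group. *Egr1* is an immediate-early zinc finger factor, and *Myc* (chr15:61985391-61990374) encodes a transcription factor for growth and proliferation. Positions are those of GENCODE M21 on GRCm38.

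The promoters of *Dusp6* and *Spry2* hold short sequences known from ERK-regulated genes, and they are shown with that of *Spred1*, which fell with time. CIC is a repressor that ERK signalling relieves, and it binds octamers of the forms TCAATGAA, TCAATGGA, TGAATGAA and TGAATGGA. ETS factors can bind CGGAAG, and no other form of their sites was marked. Both kinds were searched on both strands of the 250 bases before the RefSeq start site (GRCm38.p6). Capitals mark the matches.
*Dusp6*, chr10:99262981-99263230, plus strand: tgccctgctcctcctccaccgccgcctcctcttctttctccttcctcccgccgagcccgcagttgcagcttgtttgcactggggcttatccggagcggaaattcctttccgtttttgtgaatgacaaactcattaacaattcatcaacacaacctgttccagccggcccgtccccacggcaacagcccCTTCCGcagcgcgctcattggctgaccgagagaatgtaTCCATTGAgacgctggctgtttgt
*Spry2*, chr14:105896820-105897069, minus strand: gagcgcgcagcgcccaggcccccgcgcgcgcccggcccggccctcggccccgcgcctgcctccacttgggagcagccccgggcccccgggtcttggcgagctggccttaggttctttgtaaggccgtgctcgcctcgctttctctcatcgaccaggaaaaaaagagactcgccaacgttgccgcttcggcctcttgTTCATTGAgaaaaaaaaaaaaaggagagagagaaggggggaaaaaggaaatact
*Spred1*, chr2:117120821-117121070, plus strand: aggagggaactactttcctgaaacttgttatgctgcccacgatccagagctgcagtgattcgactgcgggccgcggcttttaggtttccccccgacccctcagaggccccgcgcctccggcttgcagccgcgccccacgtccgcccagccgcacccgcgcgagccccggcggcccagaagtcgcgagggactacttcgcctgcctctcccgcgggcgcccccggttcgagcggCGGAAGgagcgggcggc

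The *Dusp6* window holds 1 TCAATGGA on the opposite strand, read as TCCATTGA, which begins 24 bases before the start site, and 1 CGGAAG on the opposite strand. The *Spry2* window holds 1 TCAATGAA on the opposite strand, 54 bases before the start. The *Spred1* window holds 1 CGGAAG. Of all 32851 promoters in the reference table, 3.19% hold any of the 4 octamers and 13.6% hold CGGAAG in a window of the same length. The windows of *Spry1* and *Etv5* held neither, and 5 members in all were matched to the RefSeq table. For *Spred1*, the RefSeq start lies upstream of the GENCODE start. A match is a description of letters and not a measured site.

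Levels of the 10 genes differed widely. Per kilobase of annotated exons, the median over the 12 libraries was 129.8 CPM for *Etv5*, 40.3 for *Spry2*, 16.3 for *Dusp6*, 13.3 for *Spry4*, 12.5 for *Etv4*, 10.1 for both *Myc* and *Dusp4*, 9.62 for *Spred1*, 7.62 for *Spry1* and 0.98 for *Egr1*. The ranges over libraries of *Etv5*, 98.7 to 159.9, and *Spry2*, 28.5 to 47.2, did not overlap with those of any other member. From *Dusp6* down to *Spry1*, neighbouring ranges overlapped. *Egr1* was lowest, with a range of 0.44 to 1.95 and raw counts of 148 to 938. *Myc* spanned the widest range on a log scale, 1.88 to 18.2.

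The siRNA lowered its target. *Srrm2* had 911, 496 and 449 CPM in experiments 1, 2 and 3 of Gl2-KD at 24 h and 517, 154 and 199.8 CPM in Srrm2-KD at 24 h. At 72 h it had 962, 479 and 442 CPM in Gl2-KD and 461, 182 and 217 CPM in Srrm2-KD. The knockdown library was the lower one in each experiment and time, and the fitted *Srrm2* level was 43.0% of the control at 24 h and 44.6% at 72 h. It passed edgeR's quasi-likelihood test for the mean of both times (log2 fold change -1.19 ± 0.10 SE, adjusted p = 0.00254), but not at 24 h (adjusted p = 0.0663) or 72 h (adjusted p = 0.0991) alone. Other settings called it at 24 h in 8 of 28 cases and at 72 h in 10 of 28, among them DESeq2 (adjusted p = 3.37e-11 and 1.76e-09). Without experiment as a block the mean was not called (-1.11, adjusted p = 1). Leaving out experiment 2 or experiment 3 ended the call of *Srrm2* (-1.02, adjusted p = 0.0899, and -1.24, adjusted p = 0.102).

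The calls between conditions were with time in culture. In Gl2-KD, *Myc* and *Spred1* fell between 24 h and 72 h, and no member rose past the test. These are 2 of 10 members against 1.45% of all tested genes, or 0.706% counted as lower only. *Myc* had 49.6, 48.0 and 25.7 CPM at 24 h and 25.0, 11.98 and 5.10 CPM at 72 h in experiments 1, 2 and 3. Every 72 h value was below every 24 h value. The fall in *Myc* was 1.73 on the log2 scale, to 30.1% (-1.73 ± 0.25 SE, edgeR adjusted p = 0.0144). Within experiments the log2 ratio was -0.99, -2.00 and -2.33. The call of *Myc* ended without experiment 2 (-1.61, adjusted p = 0.521) or experiment 3 (-1.49, adjusted p = 0.0630), and without the 24 h library of experiment 1 (adjusted p = 0.0596) or of experiment 2 (adjusted p = 0.116) or the 72 h library of experiment 2 (adjusted p = 0.118).

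*Spred1* had 156, 74.04 and 49.5 CPM at 24 h and 99.6, 48.9 and 28.9 CPM at 72 h in Gl2-KD. The groups overlapped because the experiments started at different levels, but the ratio within experiments was even, at -0.65, -0.60 and -0.77 (fitted -0.67 ± 0.11 SE, edgeR adjusted p = 0.0245). The call of *Spred1* ended without experiment 2 or experiment 3, without any one 24 h library of Gl2-KD, and without the 72 h library of experiment 2 or 3, where adjusted p ran from 0.0608 to 0.521 and the value from -0.58 to -0.73. In Srrm2-KD, *Spred1* had 131, 75.5 and 56.5 CPM at 24 h and 109, 50.0 and 39.4 CPM at 72 h. That difference did not pass the test (-0.46 ± 0.11 SE, edgeR adjusted p = 0.0972).

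In Srrm2-KD, *Myc* had 46.2, 45.2 and 29.1 CPM at 24 h and 29.7, 17.1 and 10.7 CPM at 72 h. The lowest 24 h library, at 29.1, lay just under the highest 72 h library, at 29.7. The log2 fold change was -1.18 ± 0.25 SE (edgeR adjusted p = 0.0646), and no member was called in Srrm2-KD, where 0.551% of all genes were. The calls for *Myc* and *Spred1* in Gl2-KD and their absence in Srrm2-KD do not show that the time courses differed, since the test of that difference called neither.

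The ranges of 2 members did not overlap between times in Gl2-KD, against 7.27% of all genes. These were *Myc* and *Dusp6*. *Dusp6* had 50.7, 55.1 and 56.4 CPM at 24 h and 42.3, 43.4 and 34.9 CPM at 72 h, with all 3 experiments lower at 72 h (-0.43 ± 0.15 SE, edgeR adjusted p = 0.176). In Srrm2-KD it had 46.1, 63.1 and 51.8 CPM at 24 h and 51.6, 39.5 and 52.1 CPM at 72 h, a pattern that only experiment 2 carried (-0.16 ± 0.15 SE). No member's ranges were apart in Srrm2-KD, against 7.48% of all genes.

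*Spry4* (chr18:38586247-38601415) differed between experiments in its time course. In Gl2-KD it had 75.8, 64.8 and 55.7 CPM at 24 h and 65.5, 25.2 and 22.1 CPM at 72 h, and in Srrm2-KD it had 71.8, 62.1 and 65.4 CPM at 24 h and 81.2, 26.7 and 35.0 CPM at 72 h. The level in experiments 2 and 3 was far lower at 72 h under both siRNAs, while experiment 1 stayed near its 24 h level. The log2 ratio of the control cells was -0.21, -1.36 and -1.34, that of the knockdown cells 0.18, -1.22 and -0.90, and the fits did not pass the test (-0.96 ± 0.27 SE, edgeR adjusted p = 0.102, and -0.65 ± 0.27 SE, adjusted p = 0.262). Without experiment 1, *Spry4* was called in both siRNAs, at -1.35 (adjusted p = 0.0215) in Gl2-KD and -1.05 (adjusted p = 0.0434) in Srrm2-KD.

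*Etv4* had 44.2, 51.3 and 22.2 CPM at 24 h and 37.1, 31.7 and 13.9 CPM at 72 h in Gl2-KD, lower at 72 h in all 3 experiments (-0.54 ± 0.16 SE, edgeR adjusted p = 0.124). In Srrm2-KD it had 43.9, 49.4 and 29.8 CPM at 24 h and 51.4, 40.7 and 18.0 CPM at 72 h, where experiment 1 was higher and the other two lower (-0.27 ± 0.16 SE). Its relative *Etv5* was nearly level, with 616, 533 and 510.1 CPM at 24 h and 592, 501 and 405 CPM at 72 h in Gl2-KD (-0.16 ± 0.09 SE). *Etv5* had 633, 532 and 576 CPM at 24 h and 656, 523 and 516 CPM at 72 h in Srrm2-KD (-0.05 ± 0.09 SE). The 95% interval of the *Etv5* change ran from -0.36 to 0.05 in Gl2-KD.

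*Dusp4* was higher at 72 h in every experiment under both siRNAs. In Gl2-KD it had 17.4, 13.5 and 34.3 CPM at 24 h and 20.3, 25.8 and 51.9 CPM at 72 h (0.59 ± 0.19 SE, edgeR adjusted p = 0.139). In Srrm2-KD it had 17.0, 13.4 and 30.2 CPM at 24 h and 29.3, 33.2 and 41.5 CPM at 72 h (0.87 ± 0.19 SE, edgeR adjusted p = 0.0711). Neither passed the test at the stated threshold. *Spry1* had 17.3, 13.9 and 27.2 CPM at 24 h and 20.1, 18.8 and 27.0 CPM at 72 h in Gl2-KD (0.21 ± 0.14 SE), and 17.9, 14.3 and 30.6 CPM at 24 h and 27.6, 24.2 and 32.8 CPM at 72 h in Srrm2-KD (0.49 ± 0.14 SE, edgeR adjusted p = 0.120).

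*Spry2* had 98.4, 79.1 and 81.3 CPM at 24 h and 90.4, 74.4 and 59.5 CPM at 72 h in Gl2-KD (-0.21 ± 0.11 SE), and 94.9, 82.8 and 94.9 CPM at 24 h and 97.0, 75.0 and 85.4 CPM at 72 h in Srrm2-KD (-0.09 ± 0.11 SE). *Egr1* (chr18:34859823-34864984) had 4.66, 3.32 and 8.56 CPM at 24 h and 6.11, 4.15 and 6.74 CPM at 72 h in Gl2-KD (0.15 ± 0.24 SE). In Srrm2-KD it had 3.60, 2.81 and 6.89 CPM at 24 h and 4.06, 1.95 and 8.76 CPM at 72 h (0.04 ± 0.24 SE). Groups of both genes overlapped throughout.

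**Figure D1:**
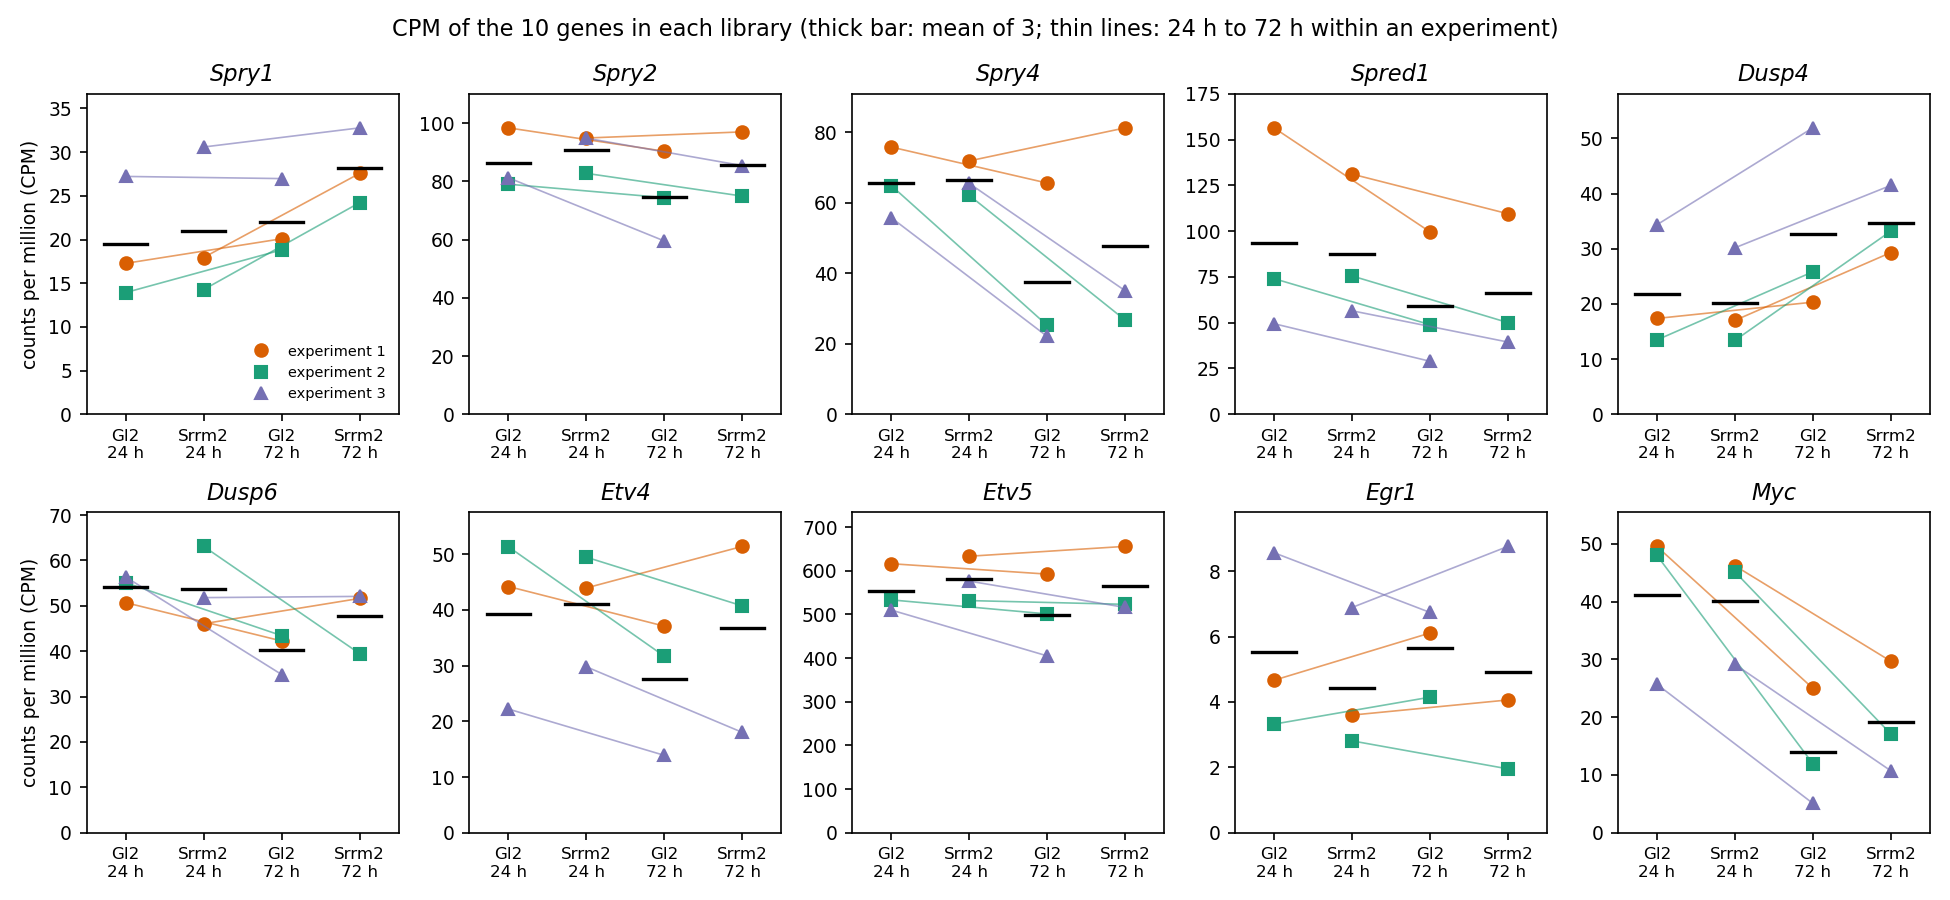
CPM on the y axis of each of the 10 genes in the 12 libraries, by group on the x axis. Points are coloured by experiment, thick bars are means of 3 libraries, and thin lines join 24 h and 72 h of an experiment. *Myc* and *Spred1* lie lower at 72 h in each experiment and *Dusp4* higher.

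At the level of p below 0.05 without adjustment, 6 members moved with time in Gl2-KD and 5 in Srrm2-KD, against 16.8% and 16.3% of all genes. The median log2 fold change over the 10 members was -0.32 in Gl2-KD and -0.13 in Srrm2-KD, beside 0.02 and 0.00 over all genes. In each siRNA 7 members were lower and 3, *Spry1*, *Dusp4* and *Egr1*, were higher. DESeq2 called 5 members in Gl2-KD (*Spry4*, *Spred1*, *Dusp4*, *Etv4* and *Myc*), against 7.41% of genes, and 4 in Srrm2-KD (*Spry1*, *Spred1*, *Dusp4* and *Myc*), against 6.42%. Without experiment as a block edgeR called no member in either, and 0% of all genes. The sum of the 6 pluripotency genes, which was not tested, was lower at 72 h as well. In the control it was 3832 to 3899 CPM at 24 h and 3383 to 3591 CPM at 72 h. After knockdown it was 3635 to 3860 CPM at 24 h and 3095 to 3323 CPM at 72 h. At 72 h it was thus also lower after knockdown than in the control. None of the 6 was called with time, against 1.45% of all genes in Gl2-KD and 0.551% in Srrm2-KD. Their part in these results was not tested.

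**Figure D2:**
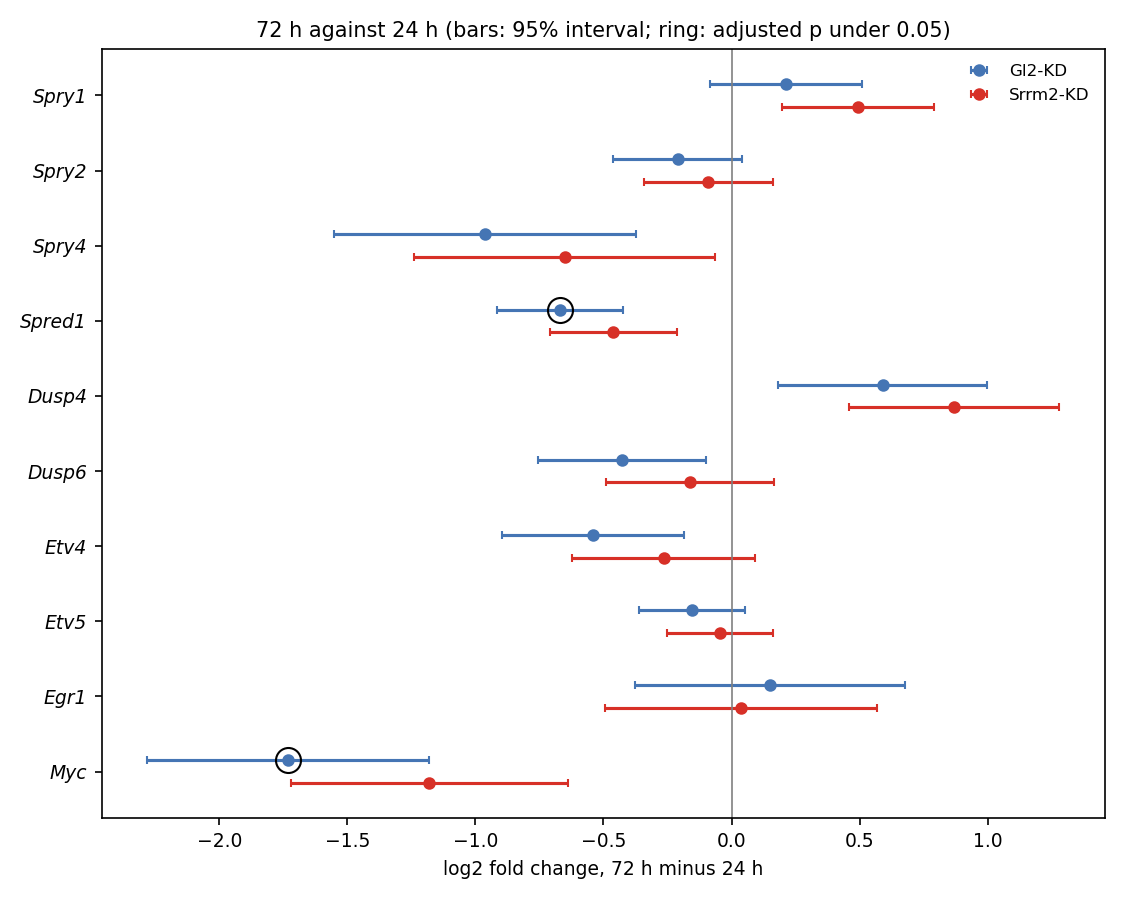
Fitted log2 fold change between 72 h and 24 h for each gene, on the x axis, in Gl2-KD and Srrm2-KD. Bars are 95% intervals and rings mark adjusted p below 0.05, which *Myc* and *Spred1* in Gl2-KD reached.

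The knockdown itself moved no member's gene-level count past the test. At 24 h the log2 fold changes between Srrm2-KD and Gl2-KD lay between -0.31 (*Egr1*) and 0.13 (*Etv4*), with no member called, against 0% of all genes, and none with p below 0.05 unadjusted, against 2.62%. Every 95% interval held 0. The *Egr1* estimate of -0.31 ± 0.24 SE was lower in all 3 experiments. No member's ranges were apart, against 3.44% of all genes.

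At 72 h again no member was called, against 0% of all genes, while 3 had p below 0.05 without adjustment, against 12.9%. This fit did not call *Srrm2* itself at either time alone, so absent calls do not show that levels were unchanged. With its own edgeR model the study called *Srrm2* at both times and further genes at 72 h. A fit of the 72 h libraries alone called 323 of 18156 genes and no member. DESeq2 called no member at 24 h, against 0.184% of the genes it gave an adjusted p, or at 72 h, against 3.26%. Of the 10, 9 had a log2 fold change above 0, against 47.9% of all genes, and the median was 0.23, against -0.02. The 9 are not separate observations, since most of them varied together across libraries. The 3 with the lowest p were *Spry1*, *Etv4* and *Myc*, each higher in Srrm2-KD in all 3 experiments. From the 72 h values given above, *Spry1* was 0.37 ± 0.13 SE higher (129% of Gl2-KD, edgeR adjusted p = 0.292). *Etv4* was 0.41 ± 0.16 SE higher (133%, edgeR adjusted p = 0.328). *Myc* was 0.56 ± 0.24 SE higher (147%, edgeR adjusted p = 0.368), with log2 ratios of 0.25, 0.51 and 1.07. The *Myc* value was 0.30 without the Gl2-KD library of experiment 3 and 0.94 without that of experiment 1, and *Etv4* was 0.22 without the Srrm2-KD library of experiment 1. None of the 10 had ranges that did not overlap, against 6.66% of all genes.

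The other members ranged from 0.18 ± 0.09 SE for *Etv5* through 0.20 for *Spry2*, *Spred1* and *Dusp4*, 0.25 for *Dusp6* and 0.35 ± 0.26 SE for *Spry4*. *Egr1*, at -0.42 ± 0.24 SE, was the exception, with log2 ratios of -0.59, -1.08 and 0.38. *Dusp4* and *Dusp6* each had 1 experiment in the opposite direction. With 1 library or experiment left out, *Spry4* ran from 0.050 to 0.66, *Spry2* from 0.052 to 0.29, *Spred1* from 0.084 to 0.27, *Dusp6* from 0.093 to 0.42, *Etv5* from 0.076 to 0.23 and *Dusp4* from -0.019 to 0.43. *Egr1* ran from -0.81 without experiment 3 to -0.14 without experiment 2. The lowest values of *Spry2* and *Etv5* came without the Gl2-KD library of experiment 3, that of *Spry4* without the Srrm2-KD library of experiment 1, and those of *Spred1* and *Dusp6* without experiment 3. A block for every experiment and time point, in place of 1 for the experiment, called *Spry1* (0.37, adjusted p = 0.0372) and *Myc* (0.59, adjusted p = 0.0481) at 72 h, against 3.73% of all genes.

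**Figure D3:**
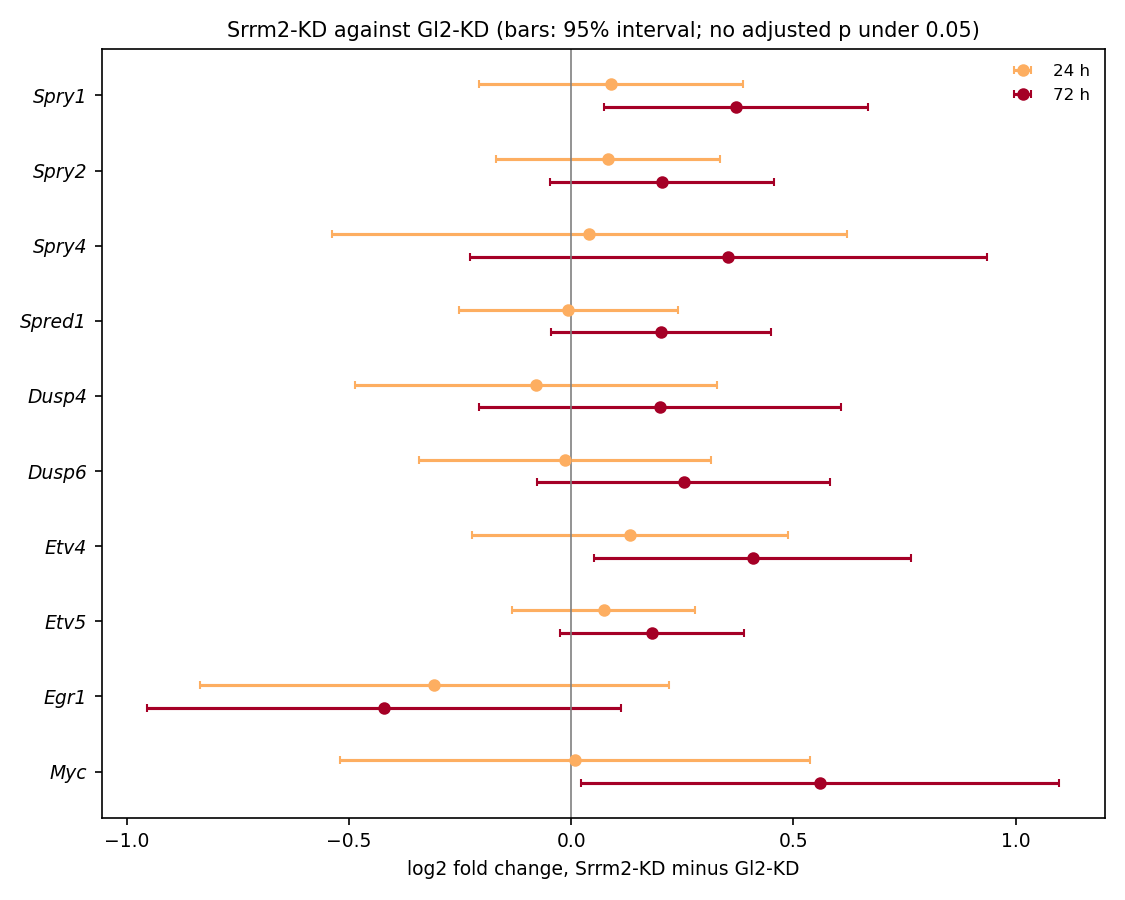
Fitted log2 fold change between Srrm2-KD and Gl2-KD for each gene, on the x axis, at 24 h and 72 h, with 95% intervals. At 72 h the points of 9 genes lie above 0, and no adjusted p is below 0.05.

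The mean of the 24 h and 72 h differences called no member, against 0.067% of all genes, and 2 (*Spry1* and *Etv4*) had p below 0.05 unadjusted, against 13.6%. The change in the knockdown effect from 24 h to 72 h was above 0 for 9 of 10 members, against 45.9% of all genes, and none was called, against 0%, or had p below 0.05 unadjusted, against 1.64%. DESeq2 called none for this difference, against 0.0103% of all genes. *Myc* had the largest value of this difference, 0.55 ± 0.34 SE, with an interval of -0.20 to 1.30, and *Egr1* the only one below 0, at -0.11 ± 0.34 SE.

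For 7 of the 10 genes more of the variation fell on the experiment than on siRNA and time. The share of the variation in log2 CPM that fell on the experiment was 81.0% for *Spred1*, 78.2% for *Egr1*, 75.1% for *Etv4*, 61.2% for *Spry1* and 60.5% for *Etv5*. For *Dusp6* it was 1.08%. *Myc* was the only member with more than 60% of its variation on siRNA and time. Against the mean of experiments 2 and 3, experiment 1 was called higher for 6 members and lower for 1, *Dusp4*, among the 53.4% of all genes called (27.3% higher and 26.1% lower). Each experiment is 1 set of cultures, so the p-values of this comparison measure only the spread within experiments.

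*Spred1* was highest in experiment 1 in all 4 groups (1.27 ± 0.08 SE, edgeR adjusted p = 6.69e-07), at 241% of the other experiments. That p-value measures the spread within experiments only. *Myc* was 0.93 higher and *Spry4* 0.88 higher. *Etv4* (0.59), *Etv5* (0.29) and *Spry2* (0.28) followed, and *Dusp4* was lower by 0.44 (-0.44 ± 0.14 SE). *Spry1*, *Dusp6* and *Egr1* were not called. The *Dusp4* call ended with library totals in place of TMM factors (adjusted p = 0.0644) and without the Gl2-KD 72 h library of experiment 1 (0.0985). The *Spry2* call ended without the Gl2-KD 24 h, Gl2-KD 72 h or Srrm2-KD 72 h library of experiment 1 (0.0624 to 0.100). *Etv4* was lowest in experiment 3 in all 4 groups and *Egr1* highest there in all 4. What the experiments differ by, such as the day of RNA processing, was not tested.

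**Figure D4:**
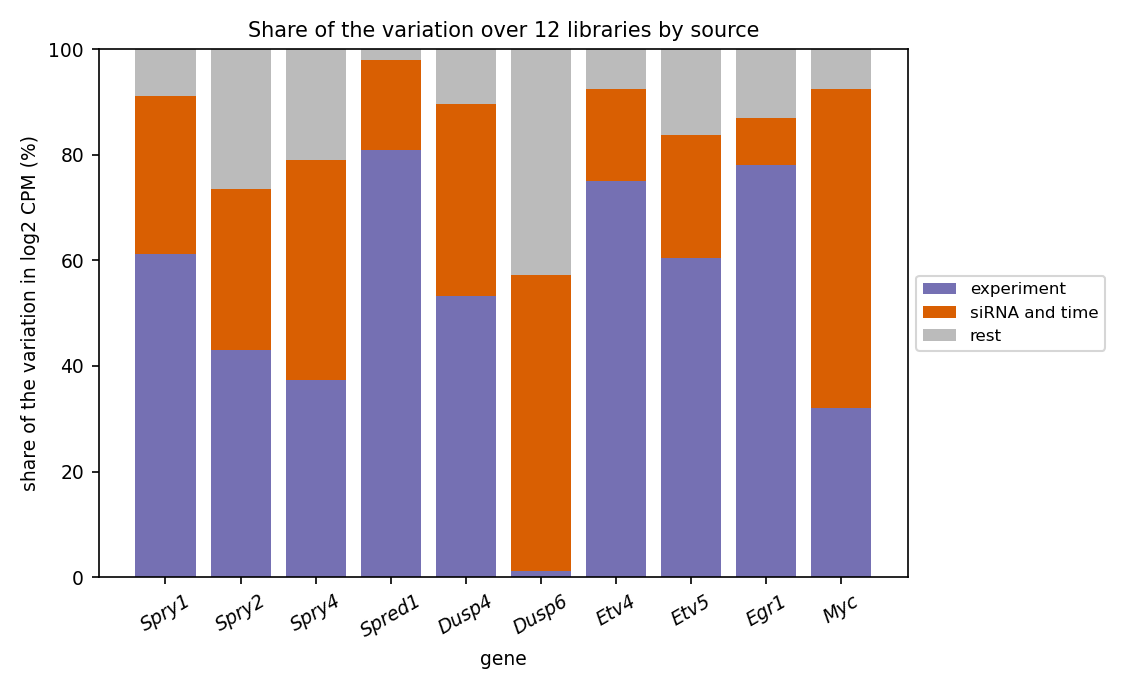
Share of the variation in log2 CPM of each gene over 12 libraries, in percent on the y axis, that falls on the experiment, on siRNA and time together, and on the rest. *Dusp6* has 1.08% on the experiment and *Spred1* 81.0%.

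A group of 7 genes varied together, *Dusp4* varied with *Spry1* and against most of the 7, and *Egr1* varied with none. With experiment means removed, 7 members (*Spry2*, *Spry4*, *Spred1*, *Dusp6*, *Etv4*, *Etv5* and *Myc*) had Pearson correlations of 0.70 to 0.97 in all 21 pairs over the 12 libraries. The closest were *Spred1* with *Myc* (0.97), *Spry2* with *Etv5* (0.96) and *Spry4* with *Myc* (0.95). *Dusp4* ran opposite to most of them, with -0.84 to *Spred1*, -0.83 to *Myc* and -0.81 to *Spry4*, and along with *Spry1* (0.82). *Egr1* had -0.29 to 0.19 with the others. Differences with time were not removed, and the 7 are the members whose fitted change from 24 h to 72 h was below 0 in both siRNAs. These are descriptions over libraries that share experiments, time and depth.

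**Figure D5:**
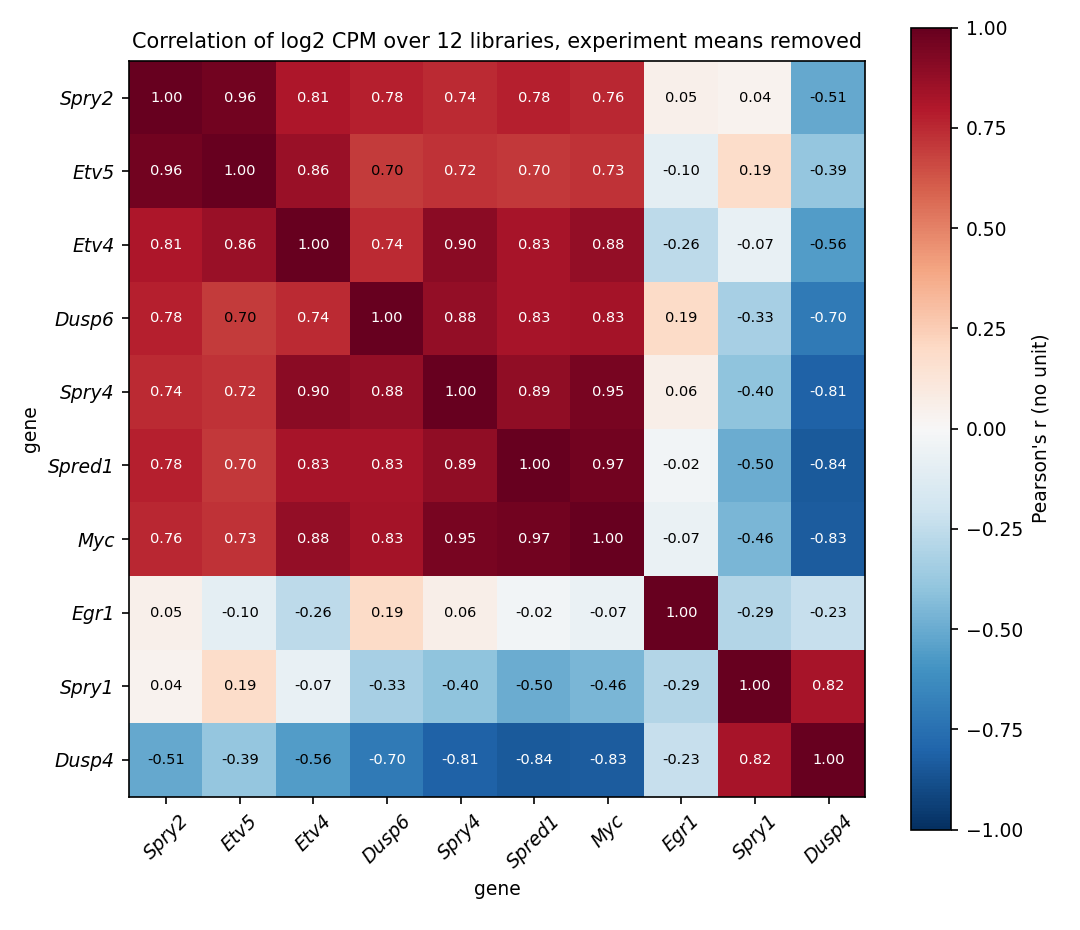
Pearson correlations of log2 CPM between the 10 genes over 12 libraries, with experiment means removed, on a scale from -1 (blue) to 1 (red). The 7 genes at the top left have correlations of 0.70 or more with each other, and *Spry1* and *Dusp4* lie apart.

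Over all tested genes, those most like *Spry4* by this measure were *Net1* (0.99), *Kdm2a* (0.99) and *Gpatch3* (0.99). *Etv5* was most like *Slc38a2* (0.98), *Spry2* (0.96) and *Ddx51* (0.96). *Dusp6* was most like *Ccdc87* (0.94), *Pls1* (0.92) and *Tmppe* (0.92). *Egr1* was most like *Zfp451* (0.91), *Junos* (0.91) and *Gm8093* (0.91). *Ccdc87*, *Junos* and *Gm8093* stayed below 1 CPM in every library, so their correlations rest on few counts. These are the extremes of 19410 genes over 12 libraries.

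Other genes of the pathway were counted from lists by role. The cascade list has 25 genes, from *Fgfr1* and *Fgfr2* through RAS, RAF and MEK to ERK and its RSK targets. None was called at 24 h or 72 h after knockdown, against 0% of all genes. At 72 h 22 of 25 had a log2 fold change below 0 and 3 above, where 47.9% of all genes were above 0. The median was -0.13, against -0.02 over all genes. How far these genes vary together was not tested. At 72 h 5 had p below 0.05 without adjustment, against 12.9% of all genes. These were *Araf* (-0.35), *Shc1* (-0.25), *Sos1* (-0.26) and *Grb2* (-0.20), which encode a RAF kinase, 1 exchange factor for RAS (*Sos1*) and adaptors of the receptor, and *Fgfr2* (0.33), a receptor. In Gl2-KD 1 of 25 was called with time, against 1.45% of all genes. This was *Mras*, which encodes a RAS-related GTPase. It had 45.4, 51.8 and 21.1 CPM at 24 h and 26.5, 10.7 and 11.4 CPM at 72 h (-1.31 ± 0.28 SE, edgeR adjusted p = 0.0498). In Srrm2-KD *Mras* had 45.8, 41.5 and 16.1 CPM at 24 h and 22.4, 10.9 and 10.4 CPM at 72 h (-1.20 ± 0.28 SE, adjusted p = 0.0887). The *Mras* call in Gl2-KD lay at the threshold and ended under 18 of 27 other settings, including each Gl2-KD library left out in turn.

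Of 20 tested among 21 other ERK-responsive genes, none was called after knockdown at 24 h or 72 h, against 0% of all genes. With time in Gl2-KD 1 was called, *Etv1*, the third PEA3 factor, which fell, against 1.45% of all genes. At 72 h 2 of the 20, *Etv1* and *Fosb*, had p below 0.05 without adjustment for the knockdown, against 12.9% of all genes. *Fosb* had no count in any Gl2-KD library at 72 h. In Srrm2-KD at 72 h it had 28, 0 and 0 counts in experiments 1, 2 and 3, and it is given no fold. *Etv1* had 55.8, 24.0 and 15.01 CPM at 24 h and 34.8, 12.3 and 5.83 CPM at 72 h (-0.98 ± 0.20 SE, edgeR adjusted p = 0.0420). In Srrm2-KD it had 50.0, 31.2 and 22.0 CPM at 24 h and 54.0, 25.0 and 12.2 CPM at 72 h. At 72 h *Etv1* was higher in Srrm2-KD in all 3 experiments, by 0.63, 1.02 and 1.07 on the log2 scale (fitted 0.89 ± 0.20 SE, edgeR adjusted p = 0.144). It was called under 4 of 28 other settings. These were DESeq2 (adjusted p = 0.0028), a fit without the 24 h libraries (0.0218) and pairs of libraries as blocks (0.0243). The remaining setting left out the 24 h Srrm2-KD library of experiment 1 (0.0445). In this order, these settings called 535 of 16399, 323 of 18156, 724 of 19410 and 42 of 19921 genes. The call of *Etv1* with time ended under 13 of 27 other settings, among them any one library of experiment 2, any 24 h library of Gl2-KD and every 72 h library but that of experiment 1 in Gl2-KD.

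Of 15 other inhibitors, 13 were tested. None was called for the knockdown at 24 h or 72 h, against 0% of all genes. With time none was called either, against 1.45% of all genes in Gl2-KD and 0.551% in Srrm2-KD. For the knockdown at 72 h 2 of the 13 had p below 0.05 without adjustment, against 12.9% of all genes. *Dusp1*, an immediate-early phosphatase, was 0.42 lower at 72 h (-0.42 ± 0.16 SE, edgeR adjusted p = 0.321), and *Cblb*, an E3 ligase, 0.30 lower (-0.30 ± 0.13 SE). Of 7 nuclear regulators, none was called in these comparisons either, against the same shares of all genes. For the knockdown at 72 h 5 were below 0 and 2 above, where 47.9% of all genes were above 0. Their median was -0.27, against -0.02 over all genes, and 3 had p below 0.05 without adjustment, against 12.9%. These 3 were *Cic* (-0.39 ± 0.13 SE, edgeR adjusted p = 0.249), which encodes a repressor, *Elk1* (-0.27) and *Elk3* (-0.56). Whether the *Cic* level bears on the octamers or on the members was not tested. *Cic*, *Elk1*, *Elk3*, *Dusp1* and *Cblb*, the 5 genes of the cascade and *Fosb* are named for their p below 0.05 without adjustment, after their values were seen.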

How the data were processed

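PolyA+ RNA of 12 libraries was sequenced as stranded 100-bp paired-end reads. The values are estimated counts that the authors obtained by pseudoalignment in Kallisto 0.46.1 to GENCODE M24 transcripts (mm10) and deposited per gene and library without normalization. The 42450 identifiers were matched to symbols with GENCODE M21 (42156 matched).

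Rounded counts were fitted in edgeR 4.0.16 (R 4.3.3): filterByExpr (minimum count 10, total 15), TMM factors, glmQLFit with legacy=TRUE, group and experiment as terms, and glmQLFTest with Benjamini-Hochberg adjustment over 19410 genes. A gene was called at adjusted p below 0.05. CPM use TMM-scaled library sizes. Same-numbered libraries were treated as 1 experiment because the labels give experiment numbers, and their deviations from group means correlated at 0.281 to 0.747 in all 18 pairs. Each fit had 6 residual degrees of freedom. The study describes the replicates as independent biological ones. The published edgeR model held the day of RNA processing. The labels do not give that day, so experiment took its place. DESeq2 1.42.0, limma-voom 3.58.1 and the other settings of the closing section were alternatives.

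Genes named are the 10 members, *Srrm2*, up to 2 called genes of each pathway list per comparison with the same direction in all experiments, and the 3 genes most correlated with *Dusp6*, *Spry4*, *Etv5* and *Egr1*. Outside this rule, the list genes with p below 0.05 for the knockdown at 72 h were named after their values were seen. The members and lists were chosen with earlier results of these data known. Counts do not separate isoforms, and *Spry1* and *Spry4* overlap annotated transcripts on the opposite strand. Promoter sequence is from RefSeq (GRCm38.p6). Splicing data were not analysed here, and the study lists *Etv4* among the genes spliced differently after *Srrm2* knockdown.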

Additional observations from a re-analysis of the deposited data

How the results depend on the processing

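Of 1293 comparisons of a named gene's fold change with its value under another setting, 1172 kept direction and side of the threshold, 55 lost the call, 46 gained one and 20 changed sign. No member was called at 24 h, for the mean of both times or for the change of the knockdown effect under any setting. At 72 h the replicate block for each experiment and time point called 2 (*Spry1* and *Myc*), and every other setting 0. With time in Gl2-KD, DESeq2 called 5 members, and 0 were called with no replicate block (0 of all 19410 genes) or with experiment 1 against the others as batch. With 1 library or experiment left out the count was 0 to 3. It was 0 without experiment 2, either Gl2-KD library of experiment 2, the Gl2-KD 24 h library of experiment 1, or experiment 3, and 1 (*Myc*) without either Gl2-KD library of experiment 3. With time in Srrm2-KD, DESeq2 called 4, limma-voom 1, and 2 each were called when low genes were kept, when every library needed 10 counts, or with legacy=FALSE (*Dusp4* and *Myc*). The range with 1 left out was 0 to 2, with 1 (*Myc*) without the Gl2-KD 72 h library of experiment 1 or 3 and 2 (*Spry4* and *Myc*) without experiment 1. Library totals in place of TMM shifted the median of all genes for experiment 1 from 0.01 to 0.12. The sign of small values changed: *Egr1* for the change of the knockdown effect was 0.018 with limma-voom, 0.11 with no replicate block and 0.096 with experiment 1 as batch, and -0.50 to 0.20 with 1 left out. With 1 left out, *Etv4* at 24 h ran from -0.090 to 0.30, *Dusp4* at 72 h from -0.019 to 0.43, and *Egr1* with time from -0.0061 to 0.40 in Gl2-KD and -0.23 to 0.26 in Srrm2-KD. *Spry2*, *Dusp6* and *Etv5* with time in Srrm2-KD ran from -0.18 to 0.0024, -0.33 to 0.052 and -0.11 to 0.032. The causes were not tested. The 3 libraries per group limit the precision.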
